A study of Rattus norvegicus with 17 samples.

Results

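Messenger RNA of rat cortical cultures that carried α-synuclein A53T was compared with that of cultures carrying an empty vector, all given FK506 at 2.0 µM, the dose called saturating by the submitters. These were 6 of the 17 libraries of the study, 3 of A53T and 3 of vector, and they were chosen by their labels and not by any measured value. The remaining 11 libraries held the same genotypes in the solvent DMSO (2 of A53T and 3 of vector) or with 0.2 µM FK506 (3 of each). All cultures were primary cells of the cerebral cortex, labelled as glutamatergic neurons together with astrocytes, and all were infected with one of these constructs, so the vector cultures are infected controls. The promoter that drove α-synuclein, the cells that took up the construct and the length of treatment are not given in the sources used here. Nor do labels state whether replicate libraries were grown as separate cultures, so each p-value below reflects the spread among the libraries of this study alone, and that spread may be technical.

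FK506 binds the small immunophilin FKBP12, and this pair of molecules blocks calcineurin, a phosphatase that calcium and calmodulin switch on. Calcineurin removes phosphates from NFAT transcription factors, which then enter the nucleus, and in astrocytes it is known for its part in the change to a reactive state. α-Synuclein is a protein of nerve terminals that forms the aggregates of Parkinson's disease, A53T is an inherited variant of it that aggregates more readily, and its toxicity in neurons has been tied to calcium and calcineurin.

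The values are normalized read counts per gene as the authors deposited them, and their raw depth is unknown. Normalized totals of the 6 libraries lay between 15848700 and 18335500. Where 3 values are given for a group, they are normalized counts of replicates 1, 2 and 3 in that order. Replicate 1 of A53T and replicate 2 of vector stood apart from the other libraries of their groups, with a root mean square distance of 0.354 and 0.259 log2 units from the group mean, each the highest of its group (A53T replicate 3 was at 0.283), and their deviations went the same way (r = 0.64 across genes, which are not independent replicates). The counts that lead each paragraph are therefore also given without these 2 libraries. Both kinds of labelled cell were read in the table, with 19 of 20 astrocyte markers and 16 of 18 glutamatergic markers present. Of markers of other cells, 15 of 18 GABAergic, 13 of 17 fibroblast and mural, 11 of 16 oligodendrocyte, 3 of 17 microglia and 3 of 12 endothelial ones were present. In RNA from whole cultures, fewer cells of a type and less RNA per cell cannot be told apart.

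In A53T cultures at 2.0 µM the stress cytokine Gdf15, the actin-linked genes Tagln and Flnc, the AP-1 subunits Fosl1 and Fosl2, and most reactive astrocyte genes were lower than in vector, while the lineage factors Olig1 and Olig2 and 9 of 19 general astrocyte markers were higher, with 3 of those markers lower. A gene is called here when its difference passed an adjusted p of 0.05 in limma, with Benjamini-Hochberg adjustment over all genes. Limma fits a linear model to each gene and steadies its spread with that of other genes. The spread is taken from all 6 groups of the study, and not from the 6 libraries compared alone. The words "rose", "fell", "higher" and "lower" with a log2 change ± standard error refer to A53T against vector at 2.0 µM. Of 11247 genes tested, 2202 were called, or 19.6%. They divided into 1111 higher (9.88%) and 1091 lower (9.7%). Large changes were mostly falls, since 207 called genes were lower by more than 1 on the log2 scale and 60 were higher by more than 1. The 3 and 3 libraries did not overlap for 3714 genes, which is 33% of those tested. The median change of all genes was -0.0023. The count of calls was 1192 without vector replicate 1, 1328 without vector replicate 3, 1731 without the 2 libraries that stood apart and 689 in a fit of only these 6 libraries, of which all 689 were among the 2202 in the same direction.

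**Figure D1:**
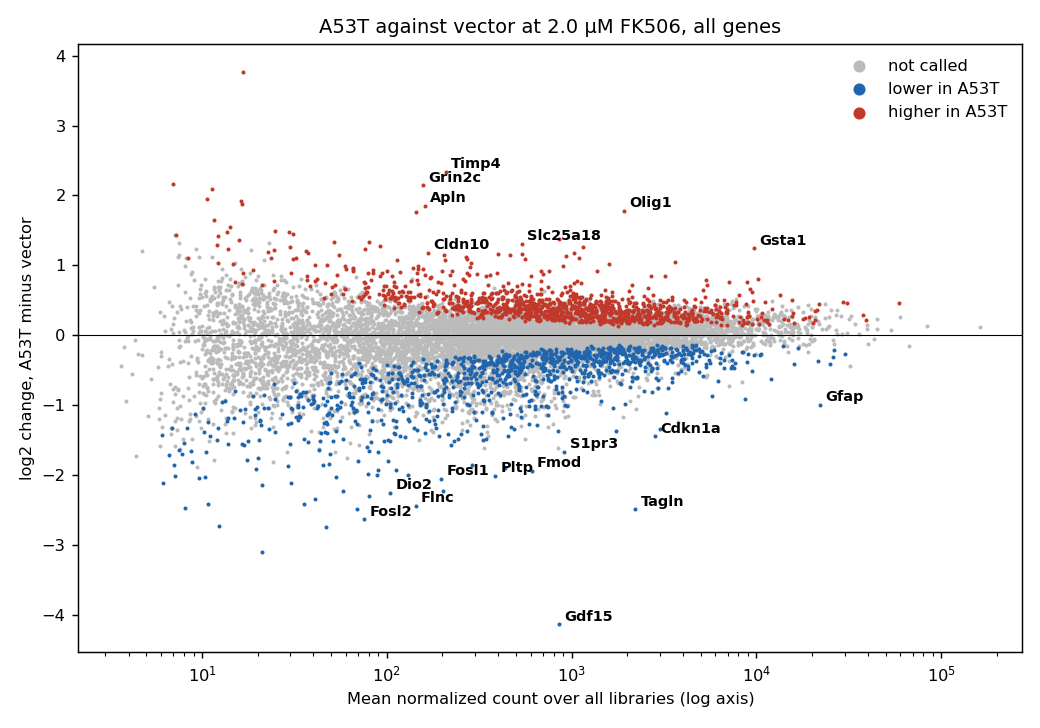
Log2 change of each of the 11247 genes (A53T minus vector at 2.0 µM FK506, vertical axis) against its mean normalized count over the 17 libraries (horizontal log axis), with called genes in red (1111 higher) and blue (1091 lower) and the others in grey. Gdf15 lies lowest, and Timp4 is the highest of the labelled genes.

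Gdf15, a secreted cytokine of the TGF-β superfamily that stressed cells release, had the largest fall among the named genes. It was read at 244, 189 and 275 in A53T and 3927, 4761 and 3743 in vector. The lowest vector library lay far above the highest A53T library, and the fall was -4.14 ± 0.17 (adjusted p = 4.88e-08). Across the study the vector cultures averaged 60.1 ± 14.2 in DMSO and 47.3 ± 4.43 at 0.2 µM (mean ± SD, n = 3 each), so the vector cultures at 2.0 µM, at 4144 ± 543, were the high group. A53T cultures averaged 387 ± 9.43 in DMSO (n = 2) and 236 ± 43.7 at 2.0 µM (n = 3).

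Cdkn1a, the p53 target that encodes the cell cycle inhibitor p21, was also lower in A53T than in vector at 2.0 µM. It had 3757, 2826 and 3806 in A53T and 9105, 11118 and 8096 in vector. No libraries overlapped, and the fall was -1.45 ± 0.13 (adjusted p = 1.94e-05). Cdkn1a in vector cultures in DMSO was at 404 ± 25.7, and both genes in A53T at 2.0 µM were above their level there. Unlike Gdf15, Cdkn1a was higher in A53T at 2.0 µM (3463 ± 552) than in A53T in DMSO (892 ± 48.4, n = 2). The p53 and apoptosis list as a whole was divided: of 21 measured genes 6 fell and 5 rose (5 and 5 without the 2 libraries that stood apart), with a median of -0.22, against 9.7% of all genes called lower and 9.88% called higher. Those that fell included the growth arrest genes Gadd45b (-0.93) and Btg2 (-0.52 ± 0.07), the p53 ligase Mdm2 (-0.28) and the proapoptotic Bcl2l11 (-0.56). Those that rose included the proapoptotic Hrk (0.72 ± 0.05) and Bbc3 (0.44) and the growth arrest gene Gadd45a (0.61). Hrk was read at 3073, 3065 and 3154 in A53T and 1876, 1789.9 and 1990.5 in vector. All 3 A53T libraries exceeded the highest vector library.

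**Figure D2:**
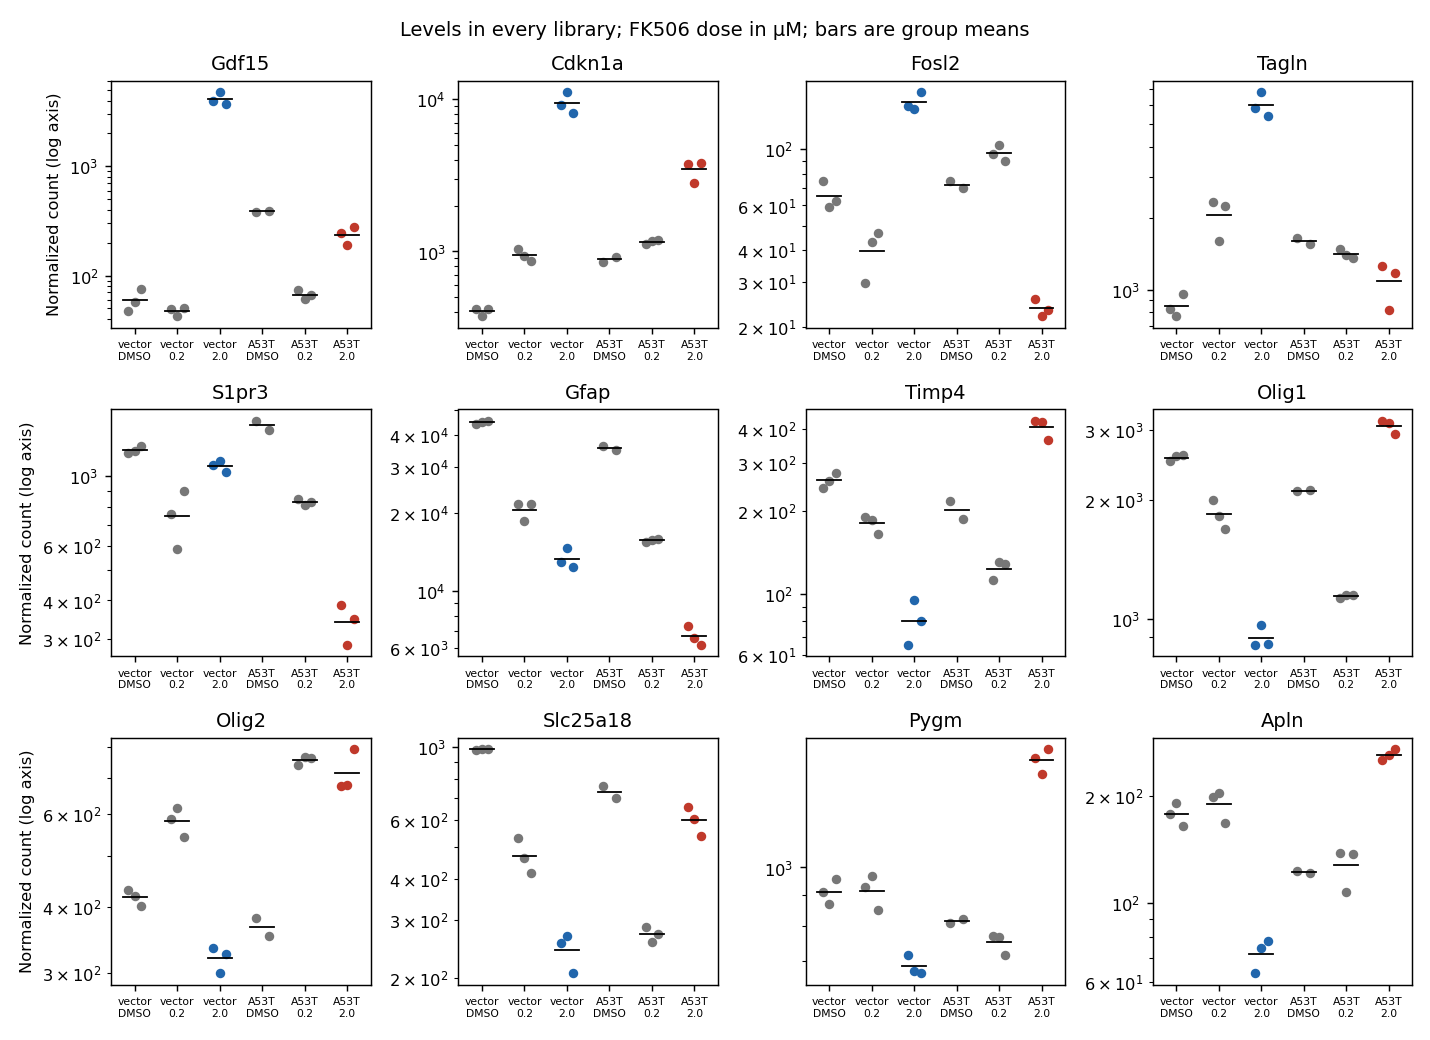
Normalized counts of 12 genes (vertical log axis, scaled per gene) in every library of the 6 groups, with FK506 in µM and a bar at each group mean. Red points are A53T and blue points vector at 2.0 µM, and these do not overlap for any of the 12 genes. For Gdf15, Fosl2, Tagln, Timp4, Olig1, Slc25a18 and Apln this was a condition of their choice.

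Most measured genes of the reactive astrocyte state fell. Of 18 measured members 12 fell and 0 rose (10 and 0 without the 2 libraries that stood apart), with a median of -0.84, against 9.7% of all genes called lower. S1pr3, a receptor for the lipid sphingosine 1-phosphate, had 386, 288 and 349 in A53T and 1085, 1120.3 and 1031 in vector. Its A53T libraries were all below its vector libraries, and it fell by more than any other member (-1.67 ± 0.13, adjusted p = 8.75e-06). Gfap, the intermediate filament of astrocytes, was read at 7320.2, 6555 and 6176 in A53T and 12955, 14585 and 12389 in vector. It did not overlap between the groups (-0.99 ± 0.08), and both groups were below the 44906 ± 699 of vector cultures in DMSO (mean ± SD, n = 3). Vim, another filament of reactive astrocytes, had 4153, 3543 and 3796 in A53T and 7018, 7951 and 6711 in vector (-0.91 ± 0.12). The hyaluronan receptor Cd44 (-1.10 ± 0.13), the protease inhibitor Timp1 (-1.01 ± 0.17), the oncostatin M receptor Osmr (-0.99), the pentraxin Ptx3 (-1.25) and the copper carrier Cp (-0.49) fell as well. Lcn2 (-0.29), Nes (-0.21), Fbln5 (-0.03), Stat3 (0.00), Aspg and Cxcl10 did not pass. In the fit of only the 6 libraries 6 members were called lower and 0 higher.

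General astrocyte markers gave more rises than falls. Of 19 measured markers 9 rose and 3 fell (9 and 3 without the 2 libraries that stood apart, 1 lower in the fit of only 6), with a median of 0.16, against 9.88% of all genes called higher. Slc25a18, a mitochondrial glutamate carrier, had 659, 607 and 537 in A53T and 255, 268 and 206 in vector. The A53T libraries were all above the vector libraries (1.30 ± 0.11, adjusted p = 1.61e-05), although below the 984 ± 1.70 of vector in DMSO. The folate enzyme Aldh1l1 (1.07), the serine transporter Slc7a10 (0.96), the gap junction protein Gja1 (0.84 ± 0.11), the aldolase Aldoc (0.76 ± 0.09) and the glutamate transporter Slc1a3 (0.49) rose. Besides Gfap, the glutamate transporter Slc1a2 (-0.50) and the chaperone Clu (-0.41) fell. The water channel Aqp4 (-0.32) and the lineage factor Sox9 (-0.08) did not pass. The summed level of the 19 markers overlapped between the groups, at 146253 to 179125 in A53T and 149916 to 183021 in vector.

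Enzymes and carriers of glycogen and glutamate metabolism, through which astrocytes store glucose and recycle transmitter, gave more rises than falls as well. Of 17 measured genes 9 rose and 1, Slc1a2, fell (9 and 1 without the 2 libraries that stood apart), with a median of 0.27, against 9.88% of all genes called higher and 9.7% called lower. Pygm, the muscle form of glycogen phosphorylase that astrocytes use, had 1513, 1425 and 1567 in A53T and 718, 674 and 669 in vector. Its A53T libraries lay well above every vector library (1.13 ± 0.07, adjusted p = 6.45e-07), and their mean of 1502 ± 71.8 was the highest of the 6 groups. Slc38a3, which exports glutamine, had 2022, 1952 and 1877 in A53T and 1047, 1012 and 1032 in vector, again without overlap (0.92 ± 0.06). Glutamine synthetase Glul (0.67), glutamate dehydrogenase Glud1 (0.39 ± 0.04) and the brain phosphorylase Pygb (0.27) rose too. Among 20 glycolysis genes 6 rose and 3 fell (4 and 2 without the 2 libraries, 1 and 1 in the fit of only 6), with 2 higher and 1 lower without vector replicate 1 or 3. The risers included Ldhb (0.37) and Eno1 (0.35 ± 0.09). The glucose transporter Slc2a1 (-0.44 ± 0.05), the lactate exporter Slc16a3 (-0.80) and the glycolytic activator Pfkfb3 (-1.42) fell.

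Sequences upstream of the reactive genes are shown as a description. A link to the falls of the AP-1 subunits Fosl1 and Fosl2 was not tested. The RefSeq promoter table, on build GRCr8, held the 250 bases before the start of 27457 genes, among them 8581 of the measured genes and all 18 measured members of the reactive list. The letters TGANTCA, a loose form of the AP-1 site with any base at N, read the same on both strands. They were found in 5 of these 18 windows (27.8%), against 4.13% of the measured genes' windows and 6.36% of all windows. They stood in 4.52% of the windows of genes called lower and 4.67% of those called higher. Other small lists also held them, with 2 of 13 heat shock windows (15.4%) and 2 of 16 cholesterol windows (12.5%). The list of NF-kB, chemokine and interferon genes had 2 of 13 (15.4%) and astrocyte markers had 1 of 16 (6.25%). Matches were found in 0 of 19 windows of activity-dependent early genes, 0 of 4 of complement genes and 0 of 5 of fibroblast and mural markers. The 5 stretches of the reactive list, chosen for the match, are given 5′ to 3′ on the strand of the gene, with the matched letters in capitals.
Osmr: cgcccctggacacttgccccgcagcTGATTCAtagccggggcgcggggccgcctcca
Gbp2: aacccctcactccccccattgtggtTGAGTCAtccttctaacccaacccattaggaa
Emp1: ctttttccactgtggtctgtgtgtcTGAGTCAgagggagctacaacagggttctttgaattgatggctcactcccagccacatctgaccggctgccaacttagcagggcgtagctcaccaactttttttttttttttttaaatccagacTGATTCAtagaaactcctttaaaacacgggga
Cxcl10: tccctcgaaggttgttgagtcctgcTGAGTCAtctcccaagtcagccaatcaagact
Aspg: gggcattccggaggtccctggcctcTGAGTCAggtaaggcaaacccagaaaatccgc
They lie at chr2:57688563-57688619 (minus strand) for Osmr, chr2:234005630-234005686 for Gbp2, chr4:169943993-169944173 for Emp1, chr14:15988945-15989001 for Cxcl10 and chr6:136997788-136997844 for Aspg (plus strand for these 4). Emp1, a membrane protein, holds 2 matches, and in Osmr the match ends 27 bases before the start. The match in Osmr and the one nearer the start in Emp1 read TGATTCA, and the others read TGAGTCA. Osmr (-0.99 ± 0.22), the GTPase Gbp2 (-0.81 ± 0.14) and Emp1 (-0.49 ± 0.15) fell, while the chemokine Cxcl10 (-0.70 ± 0.43, adjusted p = 0.254) and the asparaginase Aspg (-0.75 ± 0.37, adjusted p = 0.16) did not pass. A match describes letters in the window and shows no binding.

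Complement and other immune genes gave more falls than rises, and the cells that made this RNA were not tested. Of 9 measured complement genes 5 fell and 1 rose (5 and 1 without the 2 libraries that stood apart), against 9.7% of all genes called lower and 9.88% called higher. Serping1, the inhibitor of the first complement component, had 1732, 1464 and 1489 in A53T and 3333, 3279 and 3451 in vector. Its A53T libraries were all far below its vector libraries (-1.11 ± 0.08, adjusted p = 4.72e-06). The alternative pathway protease Cfb (-2.74 ± 0.25), C2 (-0.88 ± 0.12), C3 (-0.68) and the protease C1s (-0.65 ± 0.09) fell, and Cd55, which protects cells from complement, rose (0.70). Among 17 genes of NF-kB, chemokine and interferon responses 6 fell and 1 rose (5 and 1 without the 2 libraries that stood apart), against the same 9.7% and 9.88%. The adhesion molecule Icam1 had 172, 150.1 and 200.2 in A53T and 452, 539.5 and 372 in vector, with no overlap (-1.37 ± 0.15). The chemokines Cxcl1 (-1.23 ± 0.25) and Cxcl12 (-0.56 ± 0.11), the NF-kB inhibitor Nfkbia (-0.46 ± 0.08), the subunit Nfkb1 (-0.39) and the ubiquitin-like Isg15 (-0.81) fell, and the interferon-induced GTPase Mx2 rose (0.46). With quantile normalization this list gave 5 lower and 3 higher, and in the fit of only the 6 libraries 3 lower.

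The NF-kB letters GGGNNTTTCC, searched on both strands, occurred in 3 of the 13 windows found for this list (23.1%), against 1.4% of the measured genes' windows. The matched stretches follow with the letters in capitals.
Nfkbia: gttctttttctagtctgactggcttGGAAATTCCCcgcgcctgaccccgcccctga
Nfkb2: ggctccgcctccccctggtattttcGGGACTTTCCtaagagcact
Cxcl1: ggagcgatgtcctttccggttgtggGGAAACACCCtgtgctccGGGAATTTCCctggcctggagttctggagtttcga
They lie at chr6:78597073-78597128 for Nfkbia and chr14:17479371-17479448 for Cxcl1, both on the minus strand, and at chr1:255108329-255108373 on the plus strand for Nfkb2. Nfkbia fell, Cxcl1 fell and holds 2 matches, and Nfkb2, a precursor subunit, did not pass (-0.40 ± 0.14, adjusted p = 0.0576). Other letters searched were the CRE TGACGTCA (3 of 19 windows of activity-dependent early genes, 15.8%, against 3.09% of measured genes), the CArG box (2 of the same 19, 10.5%, against 1.13%) and the SREBP letters TCACNCCAC (0 of 16 windows of cholesterol genes, against 1.05%). The SREBP letters stood in 2 of 16 windows of astrocyte markers (12.5%) and 1 of 18 of reactive genes (5.56%).

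The AP-1 subunits Fosl1 and Fosl2 fell, while Fos and Jun did not pass. Of 24 activity-dependent early genes 5 fell and 1 rose (4 and 1 without the 2 libraries that stood apart), against 9.7% of all genes called lower. Without A53T replicate 3 the list gave 5 lower and 5 higher, and without vector replicate 2 it gave 4 lower and 3 higher. Fosl2 had 25.9, 22.0 and 23.4 in A53T and 147, 143 and 167 in vector. Its vector libraries lay far above its A53T libraries (-2.63 ± 0.18, adjusted p = 1.81e-06). Fosl1 had 116, 116 and 126 in A53T and 496, 475 and 523 in vector, again apart (-2.05 ± 0.12). The orphan receptor Nr4a3 (-1.44 ± 0.25), the clock gene Per1 (-0.61 ± 0.12) and the signalling regulator Rgs2 (-0.41) fell, and Egr2 rose (0.88). Fos (0.04), Jun (-0.06), Junb (0.26), Arc (0.48) and Bdnf (0.06) did not pass.

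Several contractile and matrix genes were lower as well. Tagln, an actin-binding protein of smooth muscle and fibroblasts, had 1258, 817 and 1177 in A53T and 5817, 6809 and 5411 in vector. The groups did not overlap (-2.49 ± 0.17, adjusted p = 2.14e-06), and the vector mean of 6012 ± 719 was the highest of the 6 groups. Flnc, an actin crosslinker, had 60.3, 44.0 and 66.8 in A53T and 313, 284 and 335 in vector (-2.44 ± 0.16). Of 13 measured fibroblast and mural markers 4 fell and 1 rose (4 and 0 without the 2 libraries that stood apart), against 9.7% of all genes called lower: Tagln, Igfbp4 (-1.27 ± 0.11), fibronectin Fn1 (-0.72 ± 0.12) and decorin Dcn (-0.66 ± 0.12) fell, and Serpinf1 rose (1.02). Lum (-0.08), Pdgfrb (0.13) and Col1a1 (-0.91) did not pass. The summed level of the list was 1977 to 2360 in A53T and 7067 to 8568 in vector, against 3774 to 4278 in vector in DMSO. Tagln made up most of the sum in vector at 2.0 µM. It averaged 1084 ± 235 in A53T at 2.0 µM and 852 ± 96.3 in vector in DMSO (mean ± SD, n = 3 each). The part of such cells in the other results was not tested. Matrix genes and proteases fell in 6 of 21 cases and rose in 1 (6 and 1 without the 2 libraries), with the thrombospondins Thbs1 (-1.65) and Thbs4 (-1.48 ± 0.18) lower and the brain proteoglycan Bcan higher (0.51 ± 0.06).

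Oligodendrocyte lineage genes were divided. Olig1, a transcription factor of this lineage, had 3166, 3132 and 2937 in A53T and 860.1, 964 and 864 in vector. All A53T libraries lay far above every vector library (1.78 ± 0.07, adjusted p = 2.15e-08), and the mean in vector was 2553 ± 47.9 in DMSO and 896 ± 58.7 at 2.0 µM (mean ± SD, n = 3 each). Olig2, its partner factor, had 676, 678 and 794 in A53T and 335, 300.0 and 326 in vector, also without overlap (1.16 ± 0.08). Of 11 measured genes of the list 3 rose and 3 fell (3 and 3 without the 2 libraries that stood apart). Of all genes 9.88% were called higher and 9.7% lower. Enpp2 (-1.23 ± 0.15), the myelin glycoprotein Mag (-1.04) and its regulator Myrf (-0.50) fell. Mbp (-0.12) and Cspg4 (-0.12) did not pass.

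**Figure D3:**
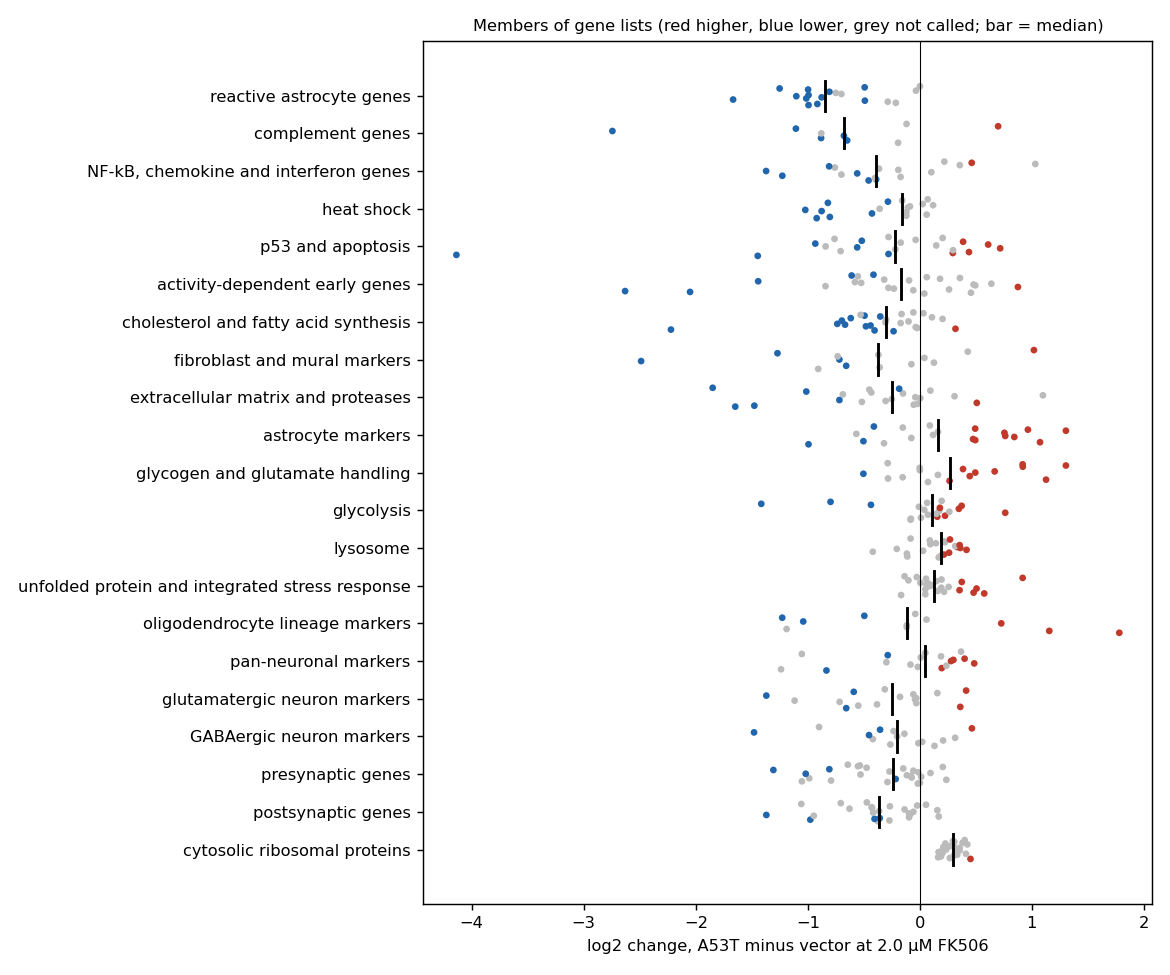
Log2 change (A53T minus vector at 2.0 µM FK506, horizontal axis) of every measured member of 21 gene lists (rows, points spread vertically only for sight), red where higher, blue where lower and grey where not called, with a bar at the list median. Reactive astrocyte genes hold 12 blue and 0 red points, and astrocyte markers 3 blue and 9 red.

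The other genes with the largest rises had varied roles. Timp4, an inhibitor of metalloproteases, had 427, 421 and 364 in A53T and 65.3, 94.8 and 80.0 in vector. It rose most among the genes with a mean of at least 50 that the naming rule took (2.33 ± 0.14, adjusted p = 6.45e-07), with every A53T library far above every vector library. Grin2c, an NMDA receptor subunit, had 304, 281 and 216 in A53T and 64.3, 76.8 and 41.5 in vector (2.14 ± 0.19). Apln, the peptide apelin, had 252, 261 and 271 in A53T and 63.4, 74.6 and 77.9 in vector (1.85 ± 0.11). None of these 3 genes overlapped between the groups, which the naming rule required. The A53T mean at 2.0 µM was the highest of the 6 groups for all 3. The thyroid hormone and organic anion transporter Slco1c1 (1.76 ± 0.15), the protease Htra1 (1.37 ± 0.10), the kinase Lyn (1.34 ± 0.13), the lipolysis inhibitor G0s2 (1.33 ± 0.22), Btbd17 (1.28 ± 0.19), purine nucleoside phosphorylase Pnp (1.26 ± 0.09), the protease Htra3 (1.23 ± 0.17), the claudin Cldn10 (1.18 ± 0.16) and Zcchc24 (1.18 ± 0.06) completed the list with Gsta1 (1.24 ± 0.09), a glutathione transferase with close paralogs among which reads may have been divided.

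Among the remaining large falls were Dio2, which activates thyroid hormone, Pltp and Fmod. Dio2 had 74.1, 51.0 and 75.2 in A53T and 283, 334 and 336 in vector (-2.25 ± 0.20). The phospholipid transfer protein Pltp had 267, 198 and 241 in A53T and 943, 1015 and 876 in vector (-2.01 ± 0.12). Fmod, a collagen-binding proteoglycan, had 136, 136 and 157 in A53T and 539, 550.1 and 562 in vector (-1.94 ± 0.11). In each of these 3 genes all A53T libraries were below all vector libraries, which the naming rule required. The GTPase Gem (-2.001 ± 0.20), the differentiation inhibitor Id3 (-1.998 ± 0.27) and Tnfaip2 (-1.93 ± 0.21) fell too. Zbtb20 (-2.30 ± 0.26), Slc5a3 (-2.03 ± 0.31) and Neurl1b (-1.99 ± 0.61) reached a mean of 50 through A53T at 0.2 µM (means of 309, 259.6 and 265 there), and at 2.0 µM Slc5a3 had only 4.22, 3.002 and 3.26 in A53T and 15.6, 17.1 and 19.2 in vector. Neurl1b was not called without vector replicate 1, 2 or 3 or A53T replicate 1 or 2, nor in the fit of only the 6 libraries.

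Sterol synthesis genes gave 11 falls and 1 rise. These were among 24 genes of cholesterol and fatty acid synthesis (10 and 1 without the 2 libraries that stood apart), with a median of -0.30, against 9.7% of all genes called lower. The sterol oxidase Msmo1 had 1909, 1763 and 1988 in A53T and 3084, 3282 and 3062 in vector, where the spread within groups was small (-0.74 ± 0.06, adjusted p = 9.60e-06). The demethylase Cyp51 (-0.67 ± 0.05), the sterol sensor partner Insig1 (-0.62 ± 0.08) and fatty acid synthase Fasn (-0.49 ± 0.07) fell, and squalene epoxidase Sqle rose (0.32).

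Stress responses did not move together. Of 17 heat shock genes 7 fell and 0 rose (7 and 0 without the 2 libraries that stood apart). Of all genes 9.7% were called lower and 9.88% higher, which is also the background for the other lists of this paragraph and the next. Hspa1b, an inducible Hsp70 whose near-identical copy Hspa1a can share its reads, had 2442, 2551 and 2786 in A53T and 4410.0, 4488 and 4666 in vector, with no overlap (-0.80 ± 0.07). Its cochaperone Bag3 (-0.82 ± 0.10) and the small chaperones Hspb8 (-1.02 ± 0.15) and Hspb1 (-0.88) fell, and constitutive Hspa8 (-0.12) did not pass. By contrast, 6 of 24 genes of the unfolded protein and integrated stress responses rose and 0 fell (7 and 0 without the 2 libraries that stood apart, 5 and 2 with quantile normalization). Slc7a11, the cystine-glutamate exchanger, had 139, 170.1 and 163 in A53T and 75.1, 92.6 and 81.0 in vector, without overlap (0.92 ± 0.12). The proapoptotic factor Ddit3 (0.57), the endoplasmic reticulum protein Herpud1 (0.51 ± 0.06), Chac1 (0.48 ± 0.06) and asparagine synthetase Asns (0.37 ± 0.05) rose. The factors Atf4 (0.05) and Atf3 (-0.17) did not pass. Nrf2 targets, an antioxidant program, rose in 4 of 18 cases and fell in 2 (4 and 2 without the 2 libraries, 2 and 0 in the fit of only 6, 2 higher without any one of vector replicates 1 and 3 and A53T replicate 1).

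Smaller shifts were seen in lysosomal and tRNA charging genes. Of 21 lysosomal genes 7 rose and 0 fell (7 and 0 without the 2 libraries that stood apart), among them the enzyme Gla (0.36 ± 0.05) and progranulin Grn (0.36 ± 0.08). With quantile normalization 5 rose and 2 fell, and in the fit of only the 6 libraries 2 rose. Aminoacyl-tRNA synthetases rose in 5 of 20 cases and fell in 0 (3 and 0 without the 2 libraries, 1 and 0 in the fit of only 6, 2 higher without vector replicate 1), led by Gars (0.33 ± 0.07) and Wars (0.30 ± 0.05).

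Among genes of calcineurin and its partners the catalytic subunits did not pass. Of 19 measured genes of the pathway 4 fell and 1 rose (5 and 1 without the 2 libraries that stood apart, 2 lower in the fit of only 6, 1 lower without vector replicate 1 and 2 lower without A53T replicate 2), against 9.7% of all genes called lower and 9.88% called higher. The catalytic subunits Ppp3ca (-0.18 ± 0.16), Ppp3cb (-0.42 ± 0.21) and Ppp3cc (0.11 ± 0.06), the regulatory subunit Ppp3r1 (0.07 ± 0.07) and Fkbp1a, which encodes FKBP12 (0.08 ± 0.09), did not pass. Rcan2, a calcineurin inhibitor, had 1842, 1941 and 1829 in A53T and 1559, 1602 and 1464 in vector, a small rise without overlap (0.28 ± 0.05). Nfatc2, one of the transcription factors that calcineurin activates, had 11.9, 26.0 and 20.2 in A53T and 53.6, 35.1 and 46.6 in vector, at low levels and without overlap (-1.22 ± 0.29), and it was not called without vector replicate 1 or in the fit of only 6 libraries. The anchoring protein Akap5 (-1.08 ± 0.31), the coactivator Crtc2 (-0.48 ± 0.08) and the FKBP12 relative Fkbp1b (-0.39 ± 0.11) fell. Akap5 was not called without vector replicate 1 or 3 or A53T replicate 1 or 2. Fkbp1b was not called without vector replicate 1 or 2 or A53T replicate 2 or 3. Rcan1 (-0.11 ± 0.06), Nfatc1 (-0.25 ± 0.19), Nfatc3 (0.00 ± 0.11) and Crtc1 (-0.69 ± 0.24) did not pass. Lrrk2, a kinase tied to Parkinson's disease, fell (-0.66 ± 0.18, not called without vector replicate 1 or A53T replicate 1, without the 2 libraries that stood apart, in the fit of only 6 or with quantile normalization).

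Neuronal genes moved in both directions, and the counts depended on single libraries. Of 17 pan-neuronal markers 5 rose and 2 fell (4 and 3 without the 2 libraries that stood apart, 1 and 1 in the fit of only 6), against 9.88% of all genes called higher and 9.7% called lower. The neurofilament Nefm had 3081, 3247 and 3283 in A53T and 2291, 2242 and 2328 in vector, without overlap (0.49 ± 0.05), and the surface protein Thy1 had 3504, 3556 and 3417 in A53T and 4280.2, 4284 and 4213 in vector (-0.29 ± 0.05). Glutamatergic markers rose in 2 of 16 cases and fell in 3 (1 and 3 without the 2 libraries), GABAergic markers rose in 1 of 15 and fell in 3 (1 and 3), presynaptic genes fell in 4 of 26 (3) and postsynaptic genes in 4 of 25 (5), with 0 higher in both synaptic lists. In the fit of only the 6 libraries 0 markers of either transmitter type and 0 presynaptic genes were called, with 1 postsynaptic gene. Without vector replicate 1 or 3 or A53T replicate 2, 1 glutamatergic marker fell. Presynaptic genes fell in 1, 0, 2 and 1 cases without vector replicate 1, vector replicate 3, A53T replicate 1 and A53T replicate 2. Postsynaptic genes fell in 1 case without vector replicate 1 or 3 or A53T replicate 1, in 8 without A53T replicate 3 and in 7 with quantile normalization. Camk2a, the kinase of excitatory synapses, had 147, 383 and 563 in A53T and 974, 554 and 1024 in vector. Here the groups met: A53T replicate 3 exceeded vector replicate 2, and replicate 1 of A53T and replicate 2 of vector were the lowest of their groups. Its change (-1.37 ± 0.43) was not called without vector replicate 1 or 3 or A53T replicate 1 or 2. The vesicle glutamate transporter Slc17a7 had 2234, 3484 and 3671 in A53T and 5143, 4230.1 and 5151 in vector, with the same 2 libraries lowest in their groups (-0.66 ± 0.17). Cplx2, Rims1 and Unc13a of the vesicle release machinery fell (-1.31 ± 0.35, -1.02 ± 0.33 and -0.81 ± 0.25), and each was not called without vector replicate 1 or 3 or A53T replicate 1 or 2.

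Cytosolic ribosomal protein genes showed the opposite order among libraries. Rpl3 had 38224, 28856 and 27914 in A53T and 21732, 25869 and 21385 in vector, without overlap, with replicate 1 of A53T and replicate 2 of vector the highest of their groups (0.45 ± 0.13, not called without vector replicate 1 or 3 or A53T replicate 1). Those 2 libraries that stood apart were thus high for Rpl3 and low for Camk2a. Of 23 measured ribosomal protein genes 1 rose and 0 fell, against 9.88% of all genes called higher and 9.7% called lower. All 23 changes were positive, from 0.16 to 0.45. Of 22 oxidative phosphorylation genes 2 rose and 0 fell (2 and 0 without the 2 libraries, 0 and 0 in the fit of only 6), against the same shares. Without A53T replicate 3, 11 of these and 5 ribosomal protein genes rose, and without vector replicate 2, 7 and 3 did. How far the deviation of these 2 libraries enters the neuronal and ribosomal values was not tested.

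The change with A53T at 2.0 µM was then set against that in DMSO, which rests on other libraries. In DMSO, A53T against vector gave 1579 calls, or 14%, with 658 higher and 921 lower. Both comparisons called 548 genes, which are 24.9% of the calls at 2.0 µM and 34.7% of those in DMSO, and of these 367 moved the same way and 181 the opposite way. Across all genes the 2 changes had r = -0.07 and across genes called at 2.0 µM r = 0.12, as a description of genes, which are not independent replicates. The difference between the 2 changes, tested itself, was called for 1641 genes (14.6%), with 916 higher and 725 lower at 2.0 µM. It was called for 867 of the 2202 genes called at 2.0 µM, or 39.4%. Each count rested on single libraries: leaving out a library in DMSO gave 413 to 1047 calls in DMSO, and leaving out any single library gave 632 to 2612 for the difference, lowest without the unnumbered A53T library in DMSO and highest without A53T replicate 3 at 2.0 µM.

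**Figure D4:**
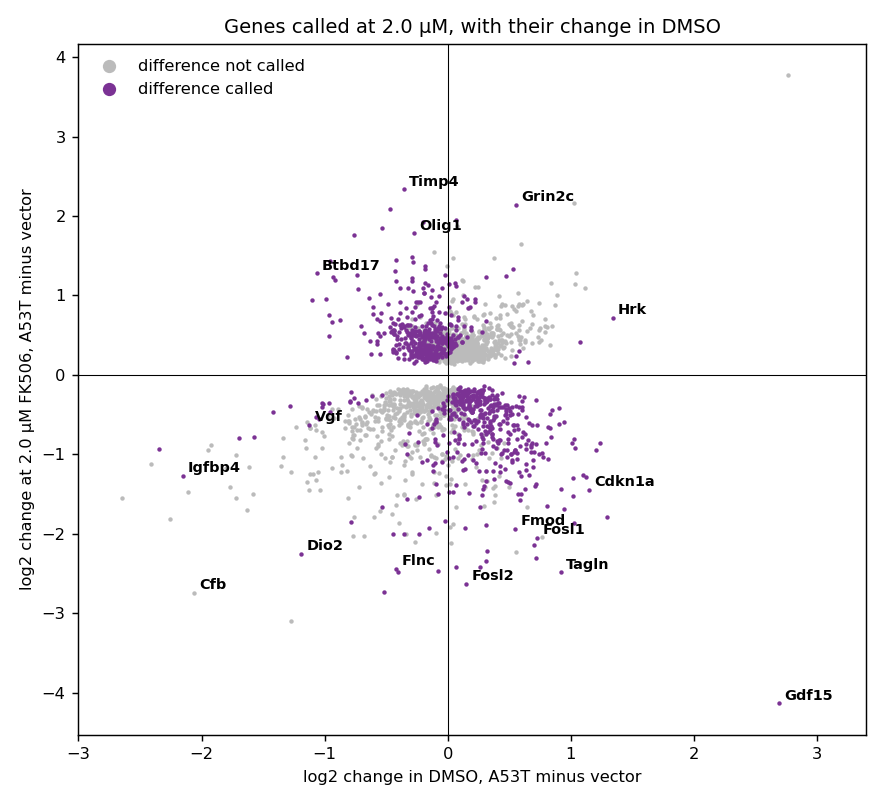
Each of the 2202 genes called at 2.0 µM, with its log2 change in DMSO (A53T minus vector, horizontal axis) and at 2.0 µM FK506 (vertical axis). Purple points are the 867 genes whose difference between the changes was called, and Gdf15 lies far to the lower right, higher in A53T in DMSO and lower at 2.0 µM.

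Gdf15 had the largest difference. It was higher with A53T in DMSO (2.69 ± 0.19) and lower in A53T at 2.0 µM, a difference of -6.83 ± 0.26 (adjusted p = 3.01e-08). Cdkn1a also rose with A53T in DMSO (1.14 ± 0.14) and differed by -2.59 ± 0.19. Of the 21 p53 and apoptosis genes 11 were higher and 0 lower in DMSO, and 9 had a called negative difference. Of all 11247 genes 658 were higher and 921 lower in DMSO, and 725 had a called negative difference. Hrk was higher with A53T in both settings (1.34 ± 0.06 in DMSO), although less so at 2.0 µM (-0.62 ± 0.08).

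For the reactive astrocyte list the median change was 0.33 in DMSO, with 3 called higher and 1 lower, against -0.84 at 2.0 µM, and the difference was called negative for 12 of 18 members and positive for 0. S1pr3 changed by 0.26 ± 0.15 in DMSO and its difference was -1.93 ± 0.20 (adjusted p = 0.000132). Gfap was already lower with A53T in DMSO (-0.33 ± 0.09) and more so at 2.0 µM (difference -0.66 ± 0.12, adjusted p = 0.00475). For astrocyte markers 0 were higher and 4 lower in DMSO, and 7 of 19 had a called positive difference and 1 a negative one. Aldoc was lower in DMSO (-0.60 ± 0.11) and differed by 1.37 ± 0.14. In the glycolysis list 12 of 20 were lower in DMSO and 12 had a called positive difference. The background for these 3 lists was 658 genes higher and 921 lower in DMSO, of all 11247. The difference was called positive for 916 of all genes and negative for 725. Tagln (0.92 ± 0.19 in DMSO) and Hspa1b (1.03 ± 0.08 in DMSO) turned from higher to lower, with differences of -3.41 ± 0.25 and -1.83 ± 0.11.

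Olig1, Apln, Slco1c1 and Btbd17 turned from lower in DMSO to higher at 2.0 µM. Their changes in DMSO were -0.28 ± 0.07, -0.54 ± 0.13, -0.76 ± 0.17 and -1.07 ± 0.22, and all 4 passed there. Other genes moved the same way in both settings. The secreted neuropeptide precursor Vgf was lower with A53T in DMSO (-1.12 ± 0.12) and at 2.0 µM, where it had 8279, 7615 and 6827 in A53T and 11064, 13905 and 10308 in vector (-0.63 ± 0.10). Igfbp4, which binds insulin-like growth factors, was lower in both (-2.15 ± 0.12 in DMSO), and Cfb was too (-2.06 ± 0.28 in DMSO, difference -0.68 ± 0.38 with an adjusted p of 0.214, which did not pass).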

How the data were processed

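RNA from rat cortical cultures was read as a single table of 11247 genes in 17 libraries. A stranded mRNA kit was used per the labels' protocols, and the submitters' processing notes name FastQC, TopHat, HTSeq and the build rn6. The deposited values are gene counts normalized by the authors, by a method not given in the sources used here, and were treated as a signal; raw depth is unknown, so no counting error is given. Whole reads were not recovered, since only 3 libraries had at least 95% of low values at whole steps (tolerance 0.1), and no count test was run. Columns were matched to samples by title; one A53T column in DMSO matched its group only and carries no number.

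From these values, log2(value + 1) was fitted by limma 3.58.1 with its mean-variance trend (R 4.3.3), with a mean per group, all 6 groups in the fit and Benjamini-Hochberg adjustment over all genes at 0.05; the steps were tested on simulated data. Fold changes on this scale understate the change of low genes. A minimum mean of 1 removed 0 genes. For A53T at 0.2 µM, differences between libraries were 0.993 to 1.04 times the sampling noise expected if the normalized values were reads. The groups compared here had at least 1.46 times. At the higher FK506 dose the ratio was 3.08 to 13.7 in A53T, with the highest value of the study, and 1.46 to 6.97 in vector. In DMSO it was 1.68 in A53T and 2.28 to 3.14 in vector. The fit took a common spread per gene from groups that were thus unequal in this ratio. Its standard errors at the higher dose therefore also rest on groups with lower ratios. This ratio is approximate, since the raw depth is unknown. On its ground the 3 libraries of A53T at 0.2 µM were counted as 1 sample, assumed to be as variable as the rest. The fit had 15 samples with 9 residual degrees of freedom.

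Named genes were the calcineurin list, the 15 largest rises and 15 largest falls (adjusted p under 0.05, mean of at least 50, no overlap, symbol known), at most 4 members of each of 34 lists by smallest p, and the 6 largest differences from DMSO in each direction. Some genes this rule took are not reported here. Other list members, and the promoter stretches, were named after their values were seen. The comparison, the lists and the tests were chosen with earlier results of these data known. Of the gene labels 10458 matched a symbol in the RefSeq table and 11093 a symbol or synonym; 23 that looked like dates were not named. Promoter sequences are from RefSeq on build GRCr8, used for sequence only. Alternatives were pseudocounts of 0.25 and 4, filters, 2 rescalings, other sample sets, sample weights, a replicate block and leaving out libraries.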

Additional observations from a re-analysis of the deposited data

Results flagged for a closer look

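The change with A53T at 2.0 µM FK506 differed from that in DMSO for 1641 genes, by a limma test of the difference itself. The largest positive differences among genes with a mean of at least 50 were Crhbp at 2.72, Timp4 at 2.69, Slco1c1 at 2.52, Apln at 2.39, Btbd17 at 2.35 and Olig1 at 2.06 on the log2 scale. Crhbp, which binds corticotropin-releasing hormone, was not called at 2.0 µM (0.26 ± 0.18): it was lower with A53T in DMSO (-2.46 ± 0.20), and its mean in vector was 418 ± 12.5 in DMSO and 38.0 ± 7.55 at 2.0 µM (mean ± SD, n = 3 each), while A53T at 2.0 µM had 45.1 ± 3.71.

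The largest negative differences were Gdf15 at -6.83, Tagln at -3.41, Zbtb20 at -3.02, Ncoa2 at -2.88, Gna13 at -2.79 and Fosl2 at -2.78. Zbtb20 and Gna13 reached a mean of 50 through A53T at 0.2 µM, where Zbtb20, Ncoa2 and Gna13 had 309 ± 32.9, 1393 ± 77.0 and 309 ± 7.79 (mean ± SD of 3 libraries counted as 1 sample). Gna13, a G protein subunit, was not called at 2.0 µM (-1.28 ± 0.47, adjusted p = 0.0738), where it had 8.06, 5.003 and 22.3 in A53T and 25.3, 20.47 and 31.4 in vector. Ncoa2, a nuclear receptor coactivator, was called lower (-1.86 ± 0.54) but not without vector replicate 1 or 3 or A53T replicate 1 or 2.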

How the results depend on the processing

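At 2.0 µM 2202 genes were called. A fit of only the 6 libraries gave 689 and sample weights 5954, although the weights did not fully converge, and weights gave 5837 for the difference from DMSO in place of 1641. Leaving out 1 library gave from 1192 to 2960 calls at 2.0 µM, from 632 to 2612 for the difference and from 413 to 1047 in DMSO in place of 1579. A replicate block by title numbers, fitted on the 6 libraries, gave 53 calls. Same-numbered libraries had deviation correlations of -0.38, -0.30 and 0.49, and not every library correlated best with its own number, so the numbers were not taken as pairs and the block was kept out of the report. No other setting moved these counts by more than 1.5 times. Median-of-ratios rescaling gave 1003 higher and 1163 lower at 2.0 µM, and with all 17 libraries kept separate the counts were 2918, 2366 and 2093. Of 131 named genes called at 2.0 µM, 87 kept the call in every setting other than the block, 43 lost it in the fit of 6 libraries, 7 without the 2 libraries that stood apart, and 0 reversed. The cause was not tested. The median of the pan-neuronal, neuropeptide and oligodendrocyte lists changed sign with quantile normalization. The count test planned for whole reads was not run. The raw depth is unknown, so what it limits could not be computed.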

Other observations

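Some gene groups outside the paragraphs above also held calls at 2.0 µM. The background for this paragraph and the next is 9.88% of all genes called higher and 9.7% called lower. Of 23 axon guidance genes 4 fell and 2 rose (2 lower without vector replicate 1 or 3, in the fit of only 6 libraries or with quantile normalization, 8 lower without A53T replicate 3): the netrin receptor Dcc fell (-1.44 ± 0.23), with 11.9, 14.01 and 12.8 in A53T and 34.1, 34.0 and 42.5 in vector, as did Unc5a (-0.87 ± 0.17), Slit2 (-0.37) and Ephb1 (-0.28), and Sema5a (0.64 ± 0.12) and Unc5c (0.44 ± 0.09) rose. Of 19 neuropeptides and trophic factors 3 fell and 0 rose (1 lower in the fit of only 6 libraries), namely Vgf, Vip (-1.48 ± 0.24) and Ntf3 (-0.74 ± 0.19, not called without vector replicate 1). In DMSO 11 of the 19 were lower with A53T, and 8 had a called positive difference, against 921 and 916 of all 11247 genes. Of 25 ion channel genes 1 fell, the calcium channel Cacna1g (-0.42 ± 0.09), and 0 rose, while 4 fell without vector replicate 2 or A53T replicate 3 and 0 in the fit of only 6 libraries.

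Of 15 genes of proliferation and DNA replication, the cyclin Ccnd1 rose (0.27 ± 0.08) and the helicase subunit Mcm5 fell (-1.05 ± 0.34), and neither was called in the fit of only 6 libraries. Ccnd1 was also not called without vector replicate 1 or 3 or A53T replicate 1, 2 or 3. Mcm5 was also not called without vector replicate 1, 2 or 3 or A53T replicate 2. Nor was Mcm5 called without the 2 libraries that stood apart or with quantile normalization. Of 21 proteasome genes 1 fell (Psmd11, -0.26 ± 0.04) and 0 rose. Among 13 housekeeping genes Actb fell (-0.31 ± 0.08), and it was not called without vector replicate 1 or 3. Of the microglia markers, Laptm5 had 3.998, 3.002 and 3.22 in A53T and 5.84, 6.78 and 8.09 in vector (-0.84 ± 0.29, not called), and of 3 endothelial markers 0 were called.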
